A study of Mus musculus with 6 samples.

Results

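The insulin-like growth factor (IGF) axis was described in 9 genes of a table of 35727, read from RNA sequencing of mouse sarcoma cells. The members were chosen by symbol: the ligands Igf1 and Igf2, the imprinted RNA H19, the receptors Igf1r and Igf2r, and the binding proteins Igfbp3, Igfbp4, Igfbp5, Igfbp6 and Igfbp7. Of these 10 symbols 9 were among the 35727 genes counted. H19 was not among them, so it was not analysed here and its level is not known. Red fluorescent tumour cells were sorted out of transplanted tumours, and all 6 libraries came from 1 line of undifferentiated pleomorphic sarcoma. The line was made in-house from mesenchymal stem cells of female p53-knockout C57/Bl6 mice. A retrovirus brought in Ccne1, the cyclin E1 gene, with the fluorescent marker, and the cells were passaged through female wild-type mice. In both groups the cells therefore lacked p53 and overexpressed Ccne1. The line then received a viral hairpin against Postn, the periostin gene (shPostn, 3 libraries, called a knockout in the sample titles), or a scrambled hairpin (shSCR, 3 libraries). The labels give no age or genotype of the tumour hosts, no second hairpin and no second line per hairpin, so an effect of reduced periostin cannot be told apart from another difference between the transduced cells. Separate tumours or mice for the libraries of a group are not stated, so p-values measure only the spread between these samples, which may be technical.

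IGF-I and IGF-II are secreted polypeptides that bind the tyrosine kinase IGF1R and signal through insulin receptor substrates to PI3K and AKT. IGF2R, the cation-independent mannose 6-phosphate receptor, takes up IGF-II for breakdown in lysosomes and carries no kinase. IGF-binding proteins hold the ligands outside cells and are cut by proteases such as pappalysins. Mouse Igf2 is expressed from the paternal chromosome and H19, beside it on distal chromosome 7, from the maternal one, under a shared imprinting control region; sarcomas, like fetal tissue, can express Igf2 at high levels.

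The 5 stretches shown precede the starts of both genes that passed the test with all libraries, Igf2 and Igfbp4, and of Igfbp3 and Igfbp7, which passed it without shPostn replicate 3. Each holds the 120 bases before a transcription start, from RefSeq on GRCm38.p6. RefSeq lists 4 starts for Igf2, and only the outermost and the innermost are shown, since the bases before the others overlap an annotated exon. Of the other genes that passed without shPostn replicate 3, the stretch of Igf1 overlaps annotated exons as well, and that of Igfbp6, which held 2 CCAAT matches, is not shown because the bases after its RefSeq start were found in no GENCODE transcript of the gene. Capitals mark matches on either strand. The motif TATAAA is here called the TATA box. The motif GGGCGG is called the GC box. The motif CCAAT was searched as well.
Igf2, outermost start, chr7:142666817-142666936, minus strand: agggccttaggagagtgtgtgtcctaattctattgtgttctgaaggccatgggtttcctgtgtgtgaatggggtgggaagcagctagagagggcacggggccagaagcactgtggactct
Igf2, innermost start, chr7:142657497-142657616, minus strand: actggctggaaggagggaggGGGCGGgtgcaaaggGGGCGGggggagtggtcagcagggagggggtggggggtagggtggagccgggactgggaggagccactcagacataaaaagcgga
Igfbp4, chr11:99041124-99041243, plus strand: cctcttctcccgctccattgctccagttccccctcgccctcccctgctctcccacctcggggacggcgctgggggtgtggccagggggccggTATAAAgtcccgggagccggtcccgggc
Igfbp3, chr11:7213924-7214043, minus strand: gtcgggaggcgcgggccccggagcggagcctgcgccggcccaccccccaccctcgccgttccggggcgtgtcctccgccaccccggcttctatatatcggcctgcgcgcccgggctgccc
Igfbp7, chr5:77408046-77408165, minus strand: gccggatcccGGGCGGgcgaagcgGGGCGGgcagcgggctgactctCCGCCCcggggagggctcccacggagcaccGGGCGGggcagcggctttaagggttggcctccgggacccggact
The innermost Igf2 start had 2 GC box matches and Igfbp7 had 4, and Igfbp4 had 1 TATA box match. The outermost Igf2 stretch and the Igfbp3 stretch held none of these letters. Among 32851 promoter stretches of the same length 26.5% held a GC box match, 6.34% a TATA box match and 21.3% a CCAAT match. A match is a description of the letters, and counts per gene do not show which Igf2 start was used.

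The libraries held between 19603269 and 20376554 counts, and 15901 to 16666 genes were detected in each. Postn fell to 217, 471 and 639 CPM (counts scaled to a common depth by TMM-normalised library sizes) in the shPostn libraries, against 4097, 3602 and 3225 CPM in the shSCR libraries (log2 fold change −3.04, SE 0.41, edgeR adjusted p = 0.0125), a call lost in 3 of 16 alternatives (adjusted p up to 0.0592). Markers of a mesenchymal line were present, with Pdgfra at 118 to 189 CPM in shPostn and 166 to 210 CPM in shSCR and vimentin (Vim) at 4095 to 4394 CPM in shPostn and 3059 to 3688 CPM in shSCR, while Thy1 lay between 0.257 and 3.89 CPM. The 6 skeletal muscle markers summed to 0.923 to 1.70 CPM in shPostn and 1.12 to 1.32 CPM in shSCR, and 1 of them, Myod1, had 0 counts in every library. Library shPostn replicate 3 stood apart: all 10 macrophage markers and all 6 pan-leukocyte markers were highest in it. The 10 macrophage markers summed to 105, 46.5 and 966 CPM in shPostn and to 197, 142 and 62.8 CPM in shSCR, and none of them was at 0 throughout. The 6 pan-leukocyte markers summed to 44.8, 20.2 and 241 CPM in shPostn and to 59.8, 44.3 and 30.2 CPM in shSCR. In sorted bulk samples, fewer cells of a type and less RNA per cell cannot be told apart.

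Per kb of merged exons, Igfbp4, Igfbp6, Igfbp7 and both receptors stood above either ligand in the sorted samples. The part of other cell types in these levels was not tested. Levels were compared between genes as CPM per kb of merged exons. In shPostn, Igfbp4 had 82.9 ± 11.6, Igfbp6 65.6 ± 21.6, Igfbp7 65.4 ± 41.2, Igf2r 33.9 ± 8.08 and Igf1r 9.08 ± 0.493 CPM per kb (SD, n = 3). Igf1 followed in shPostn with 1.09 ± 0.734 CPM per kb, Igfbp3 with 0.845 ± 0.859, Igfbp5 with 0.390 ± 0.439 and Igf2 with 0.0701 ± 0.0713 (SD, n = 3).
In that order only Igf2r over Igf1r, and Igf1r over Igf1, were neighbours whose libraries did not overlap. In shSCR, the order was Igfbp4 (117 ± 10.5 CPM per kb), Igfbp7 (101 ± 22.0), Igfbp6 (54.8 ± 6.03), Igf2r (32.9 ± 3.15), Igf1r (9.45 ± 0.512), Igfbp3 (2.93 ± 1.62), Igf1 (1.98 ± 0.353), Igf2 (0.650 ± 0.110) and Igfbp5 (0.265 ± 0.204; SD, n = 3). There the libraries of neighbours overlapped between Igfbp4 and Igfbp7 and between Igfbp3 and Igf1, and were apart at the other 6 steps. The type II receptor thus stood above the kinase receptor in all 6 libraries, and Igf2 was last in shPostn and last but one in shSCR. Salmon's own effective lengths are not used in these values.

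With all 6 libraries, 2 of the 9 genes fell in shPostn, Igf2 and Igfbp4, none rose and 7 did not pass the test (edgeR quasi-likelihood test, adjusted p under 0.05). Over all 12819 genes tested 10.1% were called and 5.53% fell. The median log2 fold change of the 9 genes was −0.50, against 0.01 over all genes tested. The same 2 genes were those whose libraries did not overlap between the groups, as was so for 33.6% of all genes tested. Without shPostn replicate 3, 5 of the 9 genes fell (Igf1, Igf2, Igfbp3, Igfbp4 and Igfbp7) and 1 rose (Igfbp6), against 9.20% of 12957 genes that fell and 7.93% that rose. Without shPostn replicate 1 only Igf2 of the 9 passed, and without shPostn replicate 2 only Igfbp4. Over all genes 943 and 637 passed in those fits. With any 1 of the shSCR libraries left out, none of the 9 genes passed the test, and over all genes 429, 307 and 404 did.

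**Figure D1:**
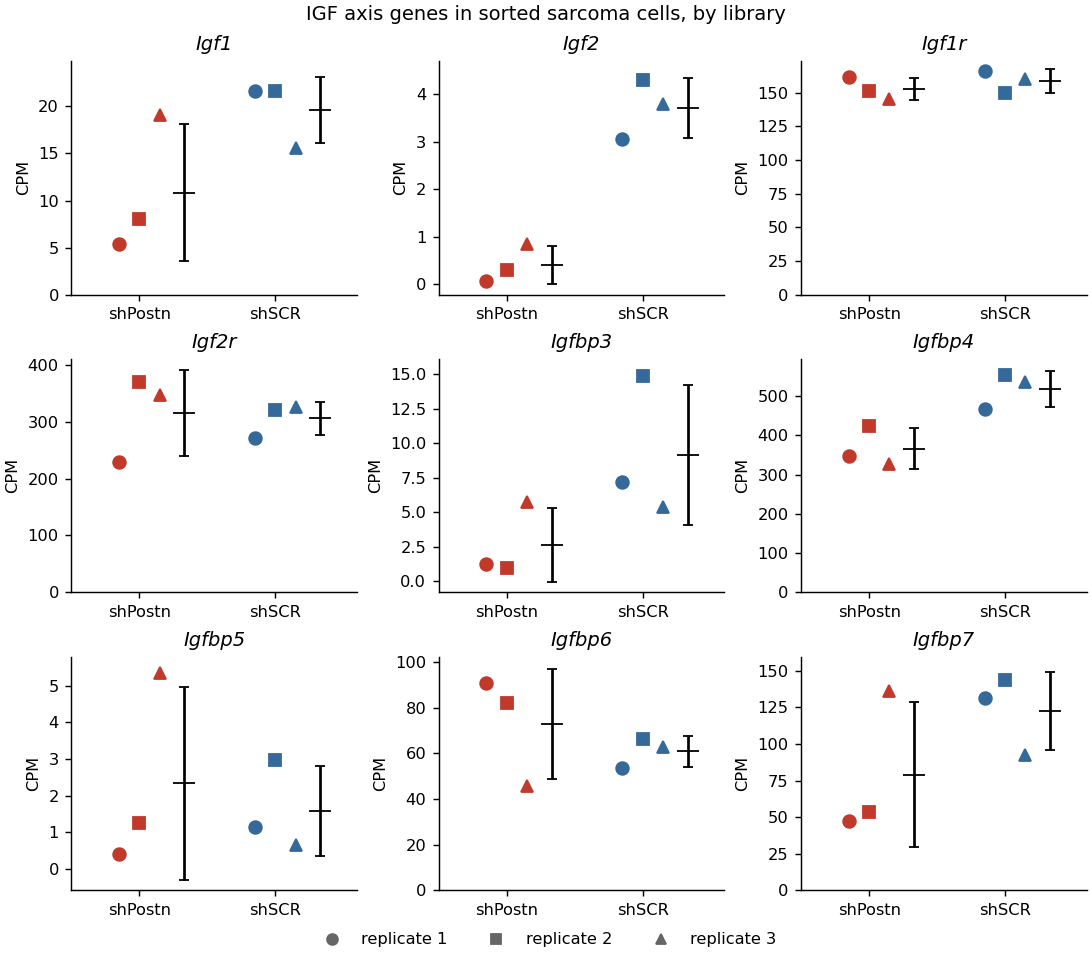
Expression of 9 IGF axis genes in CPM (vertical axes, which include 0) in the 3 shPostn libraries (red, left) and the 3 shSCR libraries (blue, right); shapes give the replicate, and the black bar the mean with its SD. Igf2 and Igfbp4 are lower in all shPostn libraries, while Igf1, Igf2, Igfbp3, Igfbp5 and Igfbp7 are highest in replicate 3 among the shPostn libraries.

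Among the ligands, Igf2 fell to 10.8% of its shSCR mean. Igf2 (ENSMUSG00000048583; GRCm38 chromosome 7, 142650766 to 142666816, minus strand) had 1, 6 and 17 counts in the shPostn libraries and 62, 88 and 75 counts in the shSCR libraries, or 0.0513, 0.303 and 0.849 CPM against 3.05, 4.30 and 3.81 CPM. The groups did not overlap, and the highest shPostn library was replicate 3, the one with the high leukocyte markers. The log2 fold change was −3.19 (SE 0.70, 95% interval −4.87 to −1.51, adjusted p = 0.0375). Summed counts of 24 in shPostn and 225 in shSCR gave a ratio of 0.109 with a 95% exact Clopper-Pearson interval of 0.0683 to 0.166, which covers counting error only.
By an exact 2-sided permutation test of Igf2 CPM, p was 0.1, which is the minimum for 3 libraries against 3. Igf2 passed the filter on low counts through the shSCR group, since only 1 shPostn library reached the minimum. Its adjusted p was 0.0979 to 0.142 with 1 shSCR library left out, 0.111 without shPostn replicate 2 and 0.0565 with each chromosome's median fold change taken out; the log2 fold change stayed between −2.68 and −4.34 in all 16 alternatives. Gm49394, an annotated protein-coding gene on the same strand that spans nearly all of Igf2, had 0 counts over the shPostn libraries and 12 over the shSCR libraries, and reads of the shared exons could be assigned to either. Counts per gene cannot show which parental chromosome the Igf2 RNA came from.

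Igf1, which macrophages and fibroblasts both express, did not pass the test with all libraries. It measured 5.34, 8.09 and 19.1 CPM in shPostn and 21.6, 21.6 and 15.6 CPM in shSCR (ENSMUSG00000020053; chromosome 10, 87858265 to 87937042, plus strand). Replicates 1 and 2 of shPostn lay below every shSCR library, and replicate 3 lay inside the shSCR range. The log2 fold change was −0.86 (SE 0.48, 95% interval −2.05 to 0.34, adjusted p = 0.325).
Without shPostn replicate 3 the log2 fold change of Igf1 was −1.55 (SE 0.23, adjusted p = 0.00706). With the mean of the pan-leukocyte markers as a covariate it was −1.21 (adjusted p = 0.0413). The macrophage sum was 966 CPM in the library where shPostn Igf1 was highest, and among the shSCR libraries Igf1 was lowest in replicate 3, where that sum was also lowest (62.8 CPM). In shPostn replicate 1, however, the sum was 105 CPM with Igf1 at 5.34 CPM, against 62.8 CPM and 15.6 CPM in shSCR replicate 3. The part of leukocyte RNA in the Igf1 values was not tested.

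Neither receptor passed the test. Igf1r, the signalling receptor of both ligands, measured 161, 151 and 145 CPM in shPostn and 166, 149 and 160 CPM in shSCR (ENSMUSG00000005533; chromosome 7, 67952827 to 68233668, plus strand). The groups overlapped, with a log2 fold change of −0.06 (SE 0.07, adjusted p = 0.645). Its 95% interval, −0.22 to 0.11, bounds the difference more tightly than for any other of the 9 genes. Igf2r, the clearance receptor, measured 229, 369.9 and 347 CPM in shPostn and 272, 320.2 and 325 CPM in shSCR (ENSMUSG00000023830; chromosome 17, 12682406 to 12769664, minus strand). Its shPostn values spread on both sides of the shSCR range. The log2 fold change of Igf2r was 0.04 (SE 0.18, 95% interval −0.40 to 0.49, adjusted p = 0.906), and its sign turned with single libraries left out.
The log2 ratio of Igf1r to Igf2r CPM, a measure within each library that no scaling affects, was −0.51, −1.29 and −1.26 in shPostn and −0.71, −1.10 and −1.02 in shSCR. Its means were −1.02 ± 0.44 and −0.94 ± 0.21 (SD, n = 3 each; exact 2-sided permutation p = 0.8), a difference of −0.07 that was smaller than the spread within either group. With 1 library left out it ranged from −0.33 (without shPostn replicate 1) to 0.06, and its sign turned without shPostn replicate 2, shPostn replicate 3 or shSCR replicate 1. That test cannot give a p under 0.1 with 3 libraries a group.

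Igfbp4, which binds IGFs and is cleaved by pappalysin-1, had the highest mean per kb of the binding proteins in both groups, though not in every library, and fell to 70.6% of its shSCR mean. It measured 347, 424 and 327 CPM in shPostn and 466, 555 and 535 CPM in shSCR (ENSMUSG00000017493; chromosome 11, 99041244 to 99054392, plus strand). All shPostn libraries lay below all shSCR libraries, replicate 3 included. The mean was 366 ± 51.4 CPM in shPostn and 518.5 ± 46.4 CPM in shSCR (SD, n = 3 each). In the edgeR fit this was a log2 fold change of −0.50 (SE 0.12, adjusted p = 0.0397). The log2 fold change was −0.43 without shPostn replicate 3 and −0.46 with the leukocyte covariate, and both kept the call. The adjusted p was 0.103 without shPostn replicate 1 and 0.0698 to 0.158 with 1 shSCR library left out.

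Igfbp3, the main carrier of IGFs in blood and a secreted protein of mesenchymal cells, varied more within the groups. It measured 1.23, 0.960 and 5.74 CPM in shPostn and 7.18, 14.9 and 5.38 CPM in shSCR (ENSMUSG00000020427; chromosome 11, 7206086 to 7213923, minus strand). Replicates 1 and 2 of shPostn lay below all shSCR libraries, and replicate 3 lay just above the lowest of them. The log2 fold change was −1.79 (SE 0.79, adjusted p = 0.223), and DESeq2 gave an adjusted p of 0.0494. Without shPostn replicate 3 it was −3.06 (SE 0.57, adjusted p = 0.0228), with Igfbp3 at 11.97% of its shSCR mean.

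Igfbp7, a secreted protein of the vessel wall and stroma that binds IGFs weakly, was also highest in replicate 3 among the shPostn libraries. It measured 47.2, 53.4 and 136 CPM in shPostn and 131, 144 and 92.7 CPM in shSCR (ENSMUSG00000036256; chromosome 5, 77349240 to 77408041, minus strand). The log2 fold change was −0.63 with all libraries (SE 0.46, adjusted p = 0.446) and −1.28 without shPostn replicate 3 (SE 0.21, adjusted p = 0.0186). The end of Igfbp7 overlaps Polr2b on the opposite strand by 85 bases, and the libraries were strand-specific. The 8 endothelial markers summed to 2.15, 2.17 and 7.99 CPM in shPostn and to 3.39, 5.67 and 5.48 CPM in shSCR, so this sum too was highest in shPostn replicate 3. Of the 8 markers 4 were highest in that library, among them Pecam1 (3.15 CPM), whereas Cdh5 was highest in shSCR replicate 3 (2.10 CPM in shPostn replicate 3 and 3.30 CPM in shSCR replicate 3). The 5 pericyte markers summed to 244, 279 and 220 CPM in shPostn and to 210, 219 and 234 CPM in shSCR. Among shPostn libraries that sum was lowest in replicate 3, although 1 of the 5, Mcam, was highest there (63.7 CPM). The part of endothelial or pericyte RNA in the Igfbp7 values was not tested.

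Igfbp5, which binds matrix as well as IGFs, was near the low end of detection. It measured 0.410, 1.26 and 5.34 CPM in shPostn and 1.13, 2.98 and 0.660 CPM in shSCR (ENSMUSG00000026185; chromosome 1, 72857932 to 72874884, minus strand). Its log2 fold change was 0.55 with all libraries (SE 0.98, adjusted p = 0.766) and −0.92 without shPostn replicate 3 (SE 0.77, adjusted p = 0.472), so 1 library decided the sign. Igfbp6, a binding protein with a preference for IGF-II, ran the other way: it measured 91.0, 82.1 and 45.7 CPM in shPostn and 53.5, 66.5 and 62.9 CPM in shSCR (ENSMUSG00000023046; chromosome 15, 102144362 to 102149511, plus strand). Replicates 1 and 2 of shPostn were above all shSCR libraries and replicate 3 below all of them. Its log2 fold change was 0.26 with all libraries (SE 0.26, adjusted p = 0.583) and 0.51 without shPostn replicate 3 (SE 0.10, adjusted p = 0.0130).

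**Figure D2:**
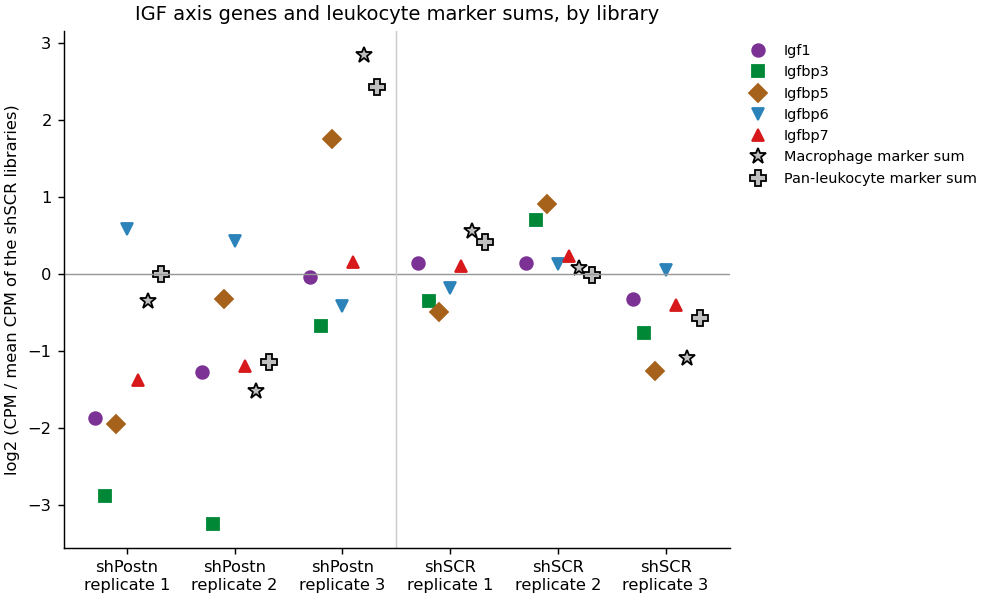
Level of 5 IGF axis genes and the summed macrophage and pan-leukocyte markers in each library, as log2 of CPM over the mean of the shSCR libraries (vertical axis); shPostn libraries are on the left. In shPostn replicate 3 the marker sums are at their highest (966 and 241 CPM), Igf1 and Igfbp7 lie near the shSCR mean, Igfbp5 lies above it and Igfbp6 below it.

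**Figure D3:**
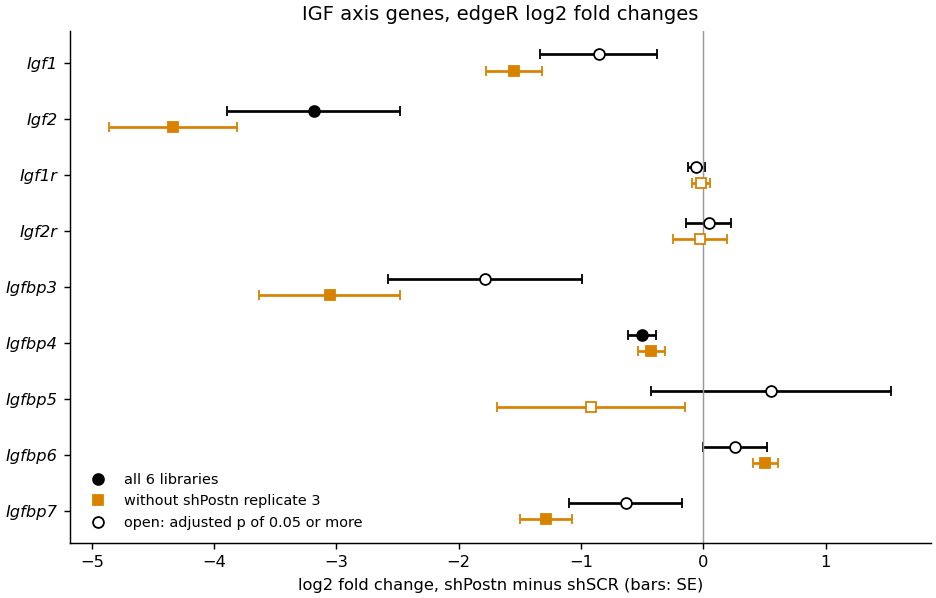
Log2 fold change of each gene, shPostn minus shSCR (horizontal axis, bars are the SE), with all 6 libraries (circles) and without shPostn replicate 3 (squares); filled symbols have an edgeR adjusted p under 0.05. Igf2 and Igfbp4 are filled in both fits, Igf1, Igfbp3, Igfbp6 and Igfbp7 only without that library, and both receptors sit near 0.

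The genes whose profile over the 6 libraries was nearest to that of Igf1, by the root mean square difference of centred log2 CPM among 12052 genes, were Cfap74 (0.14), Ccdc80 (0.14) and Rhbdl2 (0.17). Ccdc80, a secreted matrix protein, measured 19.2, 32.3 and 57.9 CPM in shPostn and 77.2, 90.0 and 55.6 CPM in shSCR, again with replicate 3 highest among shPostn libraries. Nearest to Igf2 were Gli2 (0.23), Pcdh9 (0.34) and Hif3a (0.35). Gli2, a transcription factor of Hedgehog signalling, measured 0.718, 3.34 and 6.64 CPM in shPostn and 24.2, 25.2 and 24.4 CPM in shSCR (log2 fold change −2.78, SE 0.66, adjusted p = 0.0589). These 6 genes were picked because their profiles in the same libraries resembled those of Igf1 or Igf2. Their differences between the groups, and a high shPostn replicate 3, follow from that choice and are no separate evidence. None of these 6 genes passed the test with all libraries. Of 16 alternatives Gli2 passed in 5, Hif3a in 4, Pcdh9 in 3, Cfap74 and Rhbdl2 in 1 each and Ccdc80 in 0.

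Of the other genes of the axis, 129 symbols in 9 lists, 122 were among the genes counted and 93 were tested. The symbols not found include Zac1, an older name of Plagl1, which was counted. Of the 93 genes 5 rose, 3 fell and 85 did not pass the test, against 4.61% that rose and 5.53% that fell over all genes. Their median log2 fold change was 0.02, against 0.01 over all genes. Among 8 other ligands and carriers, Ins1, Ins2 and Igfbpl1 had 0 counts in every library, and Igfbp2 reached at most 0.782 CPM. The relaxin-family genes Insl6 (log2 fold change 0.54, adjusted p = 0.323) and Insl3 (0.11, adjusted p = 0.922) were the only 2 of the 8 tested. Insl6 measured 5.39, 7.03 and 3.45 CPM in shPostn and 3.74, 2.64 and 4.52 CPM in shSCR.

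The enzymes that release IGFs from their binding proteins, and the stanniocalcins that inhibit pappalysins, held 11 tested genes. Of these 1 rose and 2 fell, against 4.61% that rose and 5.53% that fell over all genes tested. Their median log2 fold change was −0.44. Stc2, an inhibitor of pappalysins, fell to 5.23, 4.80 and 3.25 CPM in shPostn, against 10.4, 12.9 and 10.8 CPM in shSCR (log2 fold change −1.36, SE 0.20, adjusted p = 0.00969). The groups were well apart, and the call was lost in 1 of 16 alternatives, without shSCR replicate 2 (adjusted p = 0.0579). Htra1, a secreted serine protease, fell to 661, 662 and 609 CPM in shPostn, against 887, 807 and 750 CPM in shSCR (log2 fold change −0.34, SE 0.08, adjusted p = 0.0483), and lost its call in 8 of 16 alternatives, with an adjusted p of up to 0.165. Plat, the tissue plasminogen activator, rose to 534, 526 and 542 CPM in shPostn, against 385, 374 and 418 CPM in shSCR (log2 fold change 0.44, SE 0.07, adjusted p = 0.0104; 0.0592 without shSCR replicate 1 and 0.0656 without shSCR replicate 2).
Pappa, pappalysin-1 itself, was given after its values were seen: it measured 20.6, 25.1 and 73.3 CPM in shPostn and 61.3, 60.8 and 75.1 CPM in shSCR, with the same high replicate 3 as Igf1 (log2 fold change −0.73, SE 0.51, adjusted p = 0.430).

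Over all genes tested 10.1% were called and 4.61% rose, so a short list with no call does not show unchanged signalling. Downstream of the receptors none of 13 genes of receptor-proximal signalling passed the test, with a median log2 fold change of 0.10. The 2 most abundant of them, the scaffold Rack1 and the adaptor Shc1, had log2 fold changes of −0.05 (SE 0.08) and 0.12 (SE 0.08). In the PI3K-AKT-FOXO arm 2 of 25 genes rose. Pik3cb, the catalytic p110 beta subunit, rose to 9.44, 10.01 and 15.1 CPM in shPostn, against 5.95, 4.98 and 4.82 CPM in shSCR (log2 fold change 1.13, SE 0.21, adjusted p = 0.0198; up to 0.0974 with 1 shSCR library left out). Akt1 rose to 610, 538 and 480 CPM in shPostn, against 393, 414 and 399 CPM in shSCR (log2 fold change 0.43, SE 0.09, adjusted p = 0.0335). It lies on chromosome 12, where the median over 374 expressed genes was 0.39 on the log2 scale, and with chromosome medians taken out Akt1 had a log2 fold change of 0.04 (adjusted p = 0.823).
The list of IGF2 mRNA-binding proteins and LIN28 factors, to which Hmga2 was added, held 5 tested genes, and none passed. Hmga2 (log2 fold change 0.37, SE 0.12, adjusted p = 0.109) and Igf2bp2 (0.22, SE 0.10, adjusted p = 0.226) were the most abundant of them. None of 8 genes of the growth hormone receptor arm passed either; log2 fold changes were −0.16 (SE 0.16) for the receptor gene Ghr and −0.02 (SE 0.15) for the feedback inhibitor Socs3.

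The lists of Igf2 neighbours, imprinted partners and imprinting factors held 1 called gene each, against 10.1% called over all genes tested. Neighbours were listed by position, imprinted or not. Of 19 other symbols of the Igf2-H19 and Kcnq1 domains on distal chromosome 7, 17 were among the genes counted. Of these 10 were tested, 1 fell and none rose, with a median log2 fold change of 0.04. The one that fell was Lsp1, an actin-binding protein, at 193, 169 and 168 CPM in shPostn and 220, 231 and 249 CPM in shSCR (log2 fold change −0.40, SE 0.08, adjusted p = 0.0267; 0.0589 with chromosome medians taken out and up to 0.105 with 1 library left out). The 28 symbols of the wider imprinted gene network held Plagl1 and also Zac1, an older name for it. Of these symbols 23 were among the genes counted and 9 were tested. Their median log2 fold change was 0.22, and 1 of the 9 rose. This was Plagl1, an imprinted zinc finger factor known in mice as a regulator of Igf2 and H19, which rose to 1.95, 1.87 and 0.849 CPM in shPostn, against 0.344, 0.489 and 0.457 CPM in shSCR (log2 fold change 1.84, SE 0.42, adjusted p = 0.0384). Plagl1 had 38, 37 and 17 counts in shPostn and 7, 10 and 9 counts in shSCR, so it passed the filter on low counts through the shPostn group, where it was high. Its call was lost in 8 of the 15 alternatives that tested it, with an adjusted p of up to 0.134.
Among 12 tested imprinting control factors Arid4a rose, to 38.2, 38.5 and 38.0 CPM in shPostn, against 26.9, 21.2 and 30.001 CPM in shSCR (log2 fold change 0.56, SE 0.12, adjusted p = 0.0352). It too lies on chromosome 12, and had a log2 fold change of 0.17 with chromosome medians taken out (adjusted p = 0.479).

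**Figure D4:**
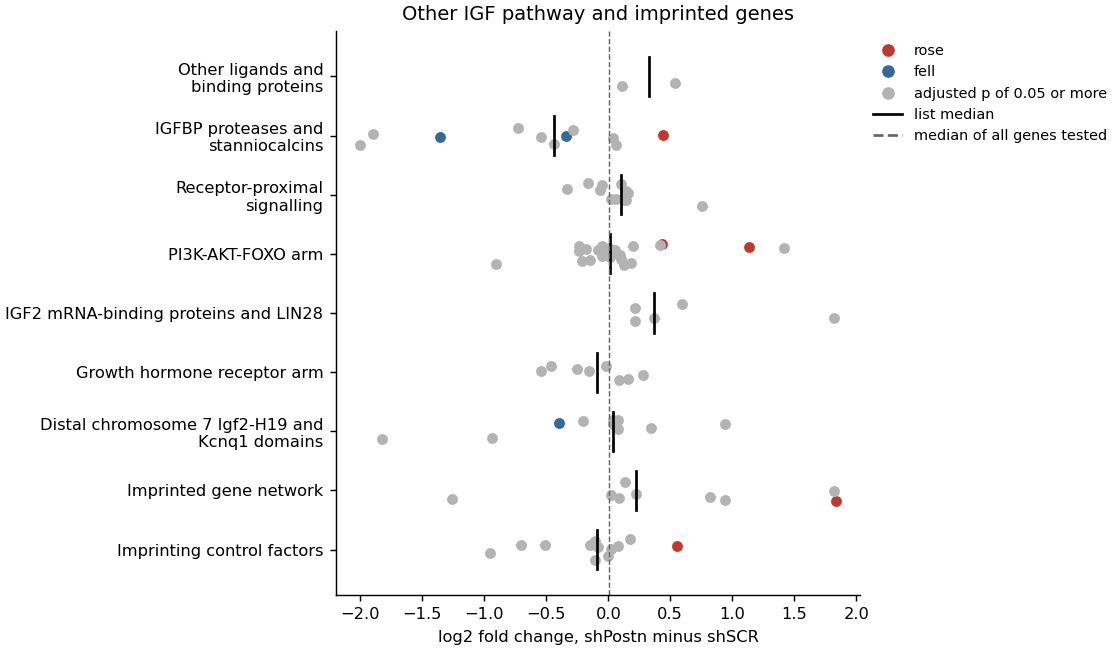
Log2 fold changes, shPostn minus shSCR (horizontal axis), of the tested genes of 9 lists of other IGF pathway and imprinted genes (rows); red rose, blue fell, grey had an adjusted p of 0.05 or more, and black bars are list medians beside the dashed median of all genes. In all 8 of 93 genes were called, against 10.1% of all genes tested, and the proteases and stanniocalcins hold 3 of these 8.

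**Figure D5:**
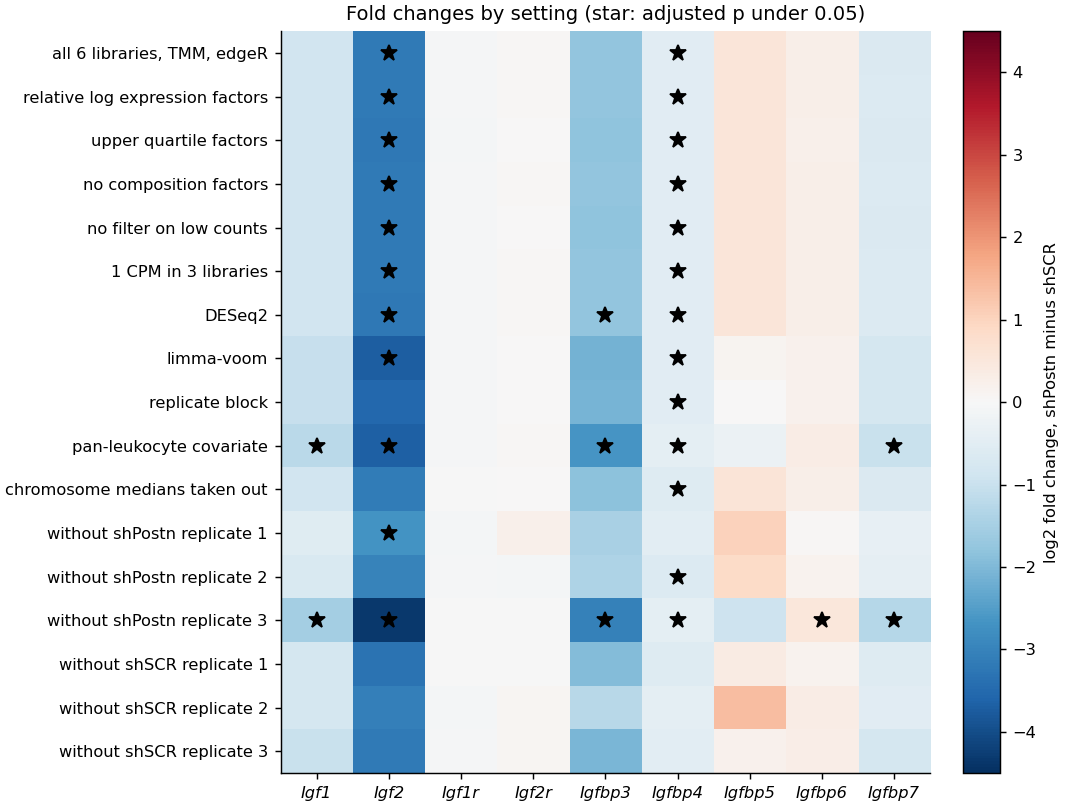
Log2 fold change of each of the 9 genes (columns, colour) under the fit with all libraries and 16 alternatives (rows); a star marks an adjusted p under 0.05. Igf2 has 11 stars and Igfbp4 13 in 17 fits, both receptors have none, and the fits that leave out a shSCR library have none.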

How the data were processed

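Strand-specific poly(A) libraries were made from TRIzol RNA by BGI on the DNBSEQ platform, per the labels' protocols. Estimated counts for Ensembl genes were deposited, which the authors made with Salmon and mm10, per the submitters' processing notes. The sources used here give neither versions nor an annotation. All values were whole (0 that were not), so rounding changed none. Symbols, positions and exon lengths came from GENCODE release M21 on GRCm38 (35493 of 35727 IDs matched).

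Genes passing filterByExpr (minimum count 10) were tested with edgeR 4.0.16 (TMM, robust quasi-likelihood F-test, no covariate) in R 4.3.3. Benjamini-Hochberg adjustment ran over all 12819 genes. Log2 fold changes are shPostn minus shSCR, their SE is the size over the square root of F, and 95% intervals use the t quantile. There was 1 comparison. The code of the fit was also run on simulated counts. These held no leukocyte difference between replicates, and the results of that run are not used here. Profiles were compared on log2 CPM with a prior count of 1, among genes with a mean of at least 1 CPM.

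Members and lists were chosen with earlier results of these data known. The text names all members, Postn, the 3 nearest profiles of Igf1 and Igf2, and from each list up to 2 called genes in each direction, ranked by size of change, or where none was called the 2 of highest mean CPM; other genes were named after their values were seen. Alternatives were other scalings (relative log expression, upper quartile, none), no filter or 1 CPM in 3 libraries, DESeq2 1.42.0, limma-voom (limma 3.58.1), a replicate block, a leukocyte covariate (mean log2 of CPM + 0.5), chromosome medians taken out (chromosomes with at least 20 genes above 4 CPM) and each library left out. The labels give no batch. The ratio of Igf2 to H19 was not computed. Figures used Python 3.11.15 and matplotlib 3.10.9.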

Additional observations from a re-analysis of the deposited data

How the results depend on the processing

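Of 1300 genes called, DESeq2 gave 1973, the leukocyte covariate 2121, the replicate block 735, chromosome medians taken out 654, and leaving out 1 library 307 to 2220. Of the 9 members 2 were called, against 5 with the covariate, 1 with the block, 1 with chromosome medians taken out and 0 to 6 with 1 library left out. Of the 93 other pathway genes 8 were called, against 16 by DESeq2, 16 with the covariate, 2 with the block, 4 with chromosome medians taken out and 0 to 16 with 1 library left out. The cause of these shifts was not tested. Deviations of same-numbered libraries correlated at −0.077, −0.132 and −0.429, so the numbers were not taken to pair the samples; with the replicate block the log2 fold changes were −3.52 for Igf2 (adjusted p = 0.0577) and −0.51 for Igfbp4 (adjusted p = 0.0456). Of the 8 pathway genes, Plat and Stc2 passed with the block, and Pik3cb (adjusted p = 0.0549), Htra1, Akt1, Lsp1, Plagl1 and Arid4a did not. Signs turned for Igf2r without shPostn replicate 2 (−0.087), shPostn replicate 3 (−0.028) and shSCR replicate 1 (−0.034), within −0.087 to 0.23 over libraries left out. They turned for Igfbp5 with the covariate (−0.27) and without shPostn replicate 3, within −0.92 to 1.38. They turned for Insl3 under limma-voom (−0.060), the block (−0.00168) and 3 left-out libraries, within −0.21 to 0.50, and for Socs3 with 2 left out, within −0.14 to 0.13. Low counts limit the precision of Igf2 (24 counts over shPostn and 225 over shSCR) and Igfbp5 (140 and 97).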
